A study of Mus musculus with 20 samples.

Results

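The 75 genes described here encode the proteins of the cytosolic ribosome. They were taken from the 20807 autosomal protein-coding genes of the GENCODE annotation of mm10 by name: symbols that begin with Rpl or Rps and a digit, together with Rplp0, Rplp1, Rplp2 and Rpsa, without the S6 kinases, names that end in -ps, and paralog forms such as Rpl3l. Of these, 43 encode proteins of the large (60S) subunit and 30 proteins of the small (40S) subunit. The other 2 answer to the naming rule but are not subunits: Rps19bp1 encodes a protein that binds the ribosomal protein S19, and Rps27rt is a retrogene of Rps27. The study mapped H3K27ac, H3K4me1 and H3K4me3 by ChIP-Seq in lineage-depleted (Lin-) bone marrow cells, a mixture of hematopoietic stem cells and progenitors, to ask how loss of the acetyltransferase p300 alters chromatin with and without Tet2. The WT mice carried Ep300fl/fl without Cre, Ep300Δ/Δ mice carried Mx1-Cre;Ep300fl/fl, Tet2-/- mice carried Ep300fl/fl;Tet2-/-, and Ep300Δ/ΔTet2-/- mice carried Mx1-Cre;Ep300fl/fl;Tet2-/-. All 4 groups therefore carried floxed Ep300 alleles, and per the study's methods all received 3 intraperitoneal injections of poly(I:C), 10 μg per g of body weight, starting at 6 to 8 weeks of age. Mx1-Cre is induced by interferon, in blood and in other tissues. Each genotype and mark had 1 library, so no comparison between genotypes below has a replicate check and none carries a p value. How many mice each library came from is not given in the sources used here.

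Ribosomal proteins are made in near-equal amounts and assembled on ribosomal RNA in the nucleolus. Their genes are short, strongly transcribed in growing cells, and in many cases carry snoRNA genes in their introns. H3K4me3 marks active promoters, H3K27ac marks active promoters and enhancers and is laid down by p300 and its relative CBP, and H3K4me1 marks enhancers and the flanks of active promoters. Blood is sensitive to ribosomal protein dose: inherited loss of 1 copy of several of these genes causes Diamond-Blackfan anemia, and loss of RPS14 is part of the 5q- syndrome, a myelodysplastic syndrome.

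The 12 peak lists held 18327 to 29659 peaks for H3K27ac, 90738 to 107392 for H3K4me1 and 25012 to 27807 for H3K4me3. H3K27ac peaks covered 18.7 Mb in WT, 11.5 Mb in Ep300Δ/Δ, 15.0 Mb in Tet2-/- and 11.9 Mb in Ep300Δ/ΔTet2-/- cells, so lists differed in size across the genome and not at these genes alone. Read depth was not used, since only called peaks were analysed, and numbers and lengths of peaks depend on depth and on the quality of each library. In the H3K27ac list of Ep300Δ/Δ cells, 7.17% of peaks had a q value over 0.05, against 0.900%, 0.811% and 0.780% in the WT, Tet2-/- and Ep300Δ/ΔTet2-/- lists. Peaks lay within 1 kb of the start of Ep300 and of Tet2 in every H3K27ac and H3K4me3 list, which does not check the deletions, since neither mark reports on the deleted exons. Of 7 progenitor markers (Kit, Cd34, Flt3, Gata2, Runx1, Spi1 and Mpo), 7, 7, 6 and 6 had an H3K27ac peak in WT, Ep300Δ/Δ, Tet2-/- and Ep300Δ/ΔTet2-/- cells, and of 8 markers of mature lineages 4, 2, 1 and 2 did. Cd3e and Cd8a, which define T cells, had no H3K27ac peak in any list, and Itgam of myeloid cells had 1 in the WT and Ep300Δ/Δ lists. The part of mature cells in the results below was not tested.

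Nearly every ribosomal protein gene carried both promoter marks in every genotype. A gene was counted as marked where a peak overlapped its body extended by 2 kb on both sides. H3K27ac was found at 74, 74, 73 and 73 of the 75 genes in WT, Ep300Δ/Δ, Tet2-/- and Ep300Δ/ΔTet2-/- cells, against 52.3%, 48.8%, 51.2% and 47.5% of all autosomal coding genes. H3K4me3 was found at 74 of 75 genes in each of the 4 lists, against 65.6%, 66.6%, 66.0% and 66.3%. All 73 genes that encode subunits had H3K27ac and H3K4me3 in each of the 4 genotypes. The exceptions were the genes outside the ribosome. Rps27rt (chr9:114982366-114982739, mm10), a copy without introns, had no peak of any mark in any list. Rps19bp1 had H3K27ac over 964 bp in WT and 367 bp in Ep300Δ/Δ cells and no H3K27ac peak in the 2 Tet2-null lists, while its H3K4me3 covered 1754, 1662, 1713 and 1812 bp.

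H3K4me1 was found at 74, 73, 74 and 71 genes, against 69.0%, 69.1%, 68.6% and 69.7% of all coding genes. Rps23, which lines the decoding center of the small subunit, had none in Ep300Δ/Δ cells, where WT had 1057 bp. Rpl5, Rpl15 and Rpl41 had none in Ep300Δ/ΔTet2-/- cells, where Tet2-/- cells had 214, 232 and 831 bp. The plot of covered length by gene shows these gaps.

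**Figure D1:**
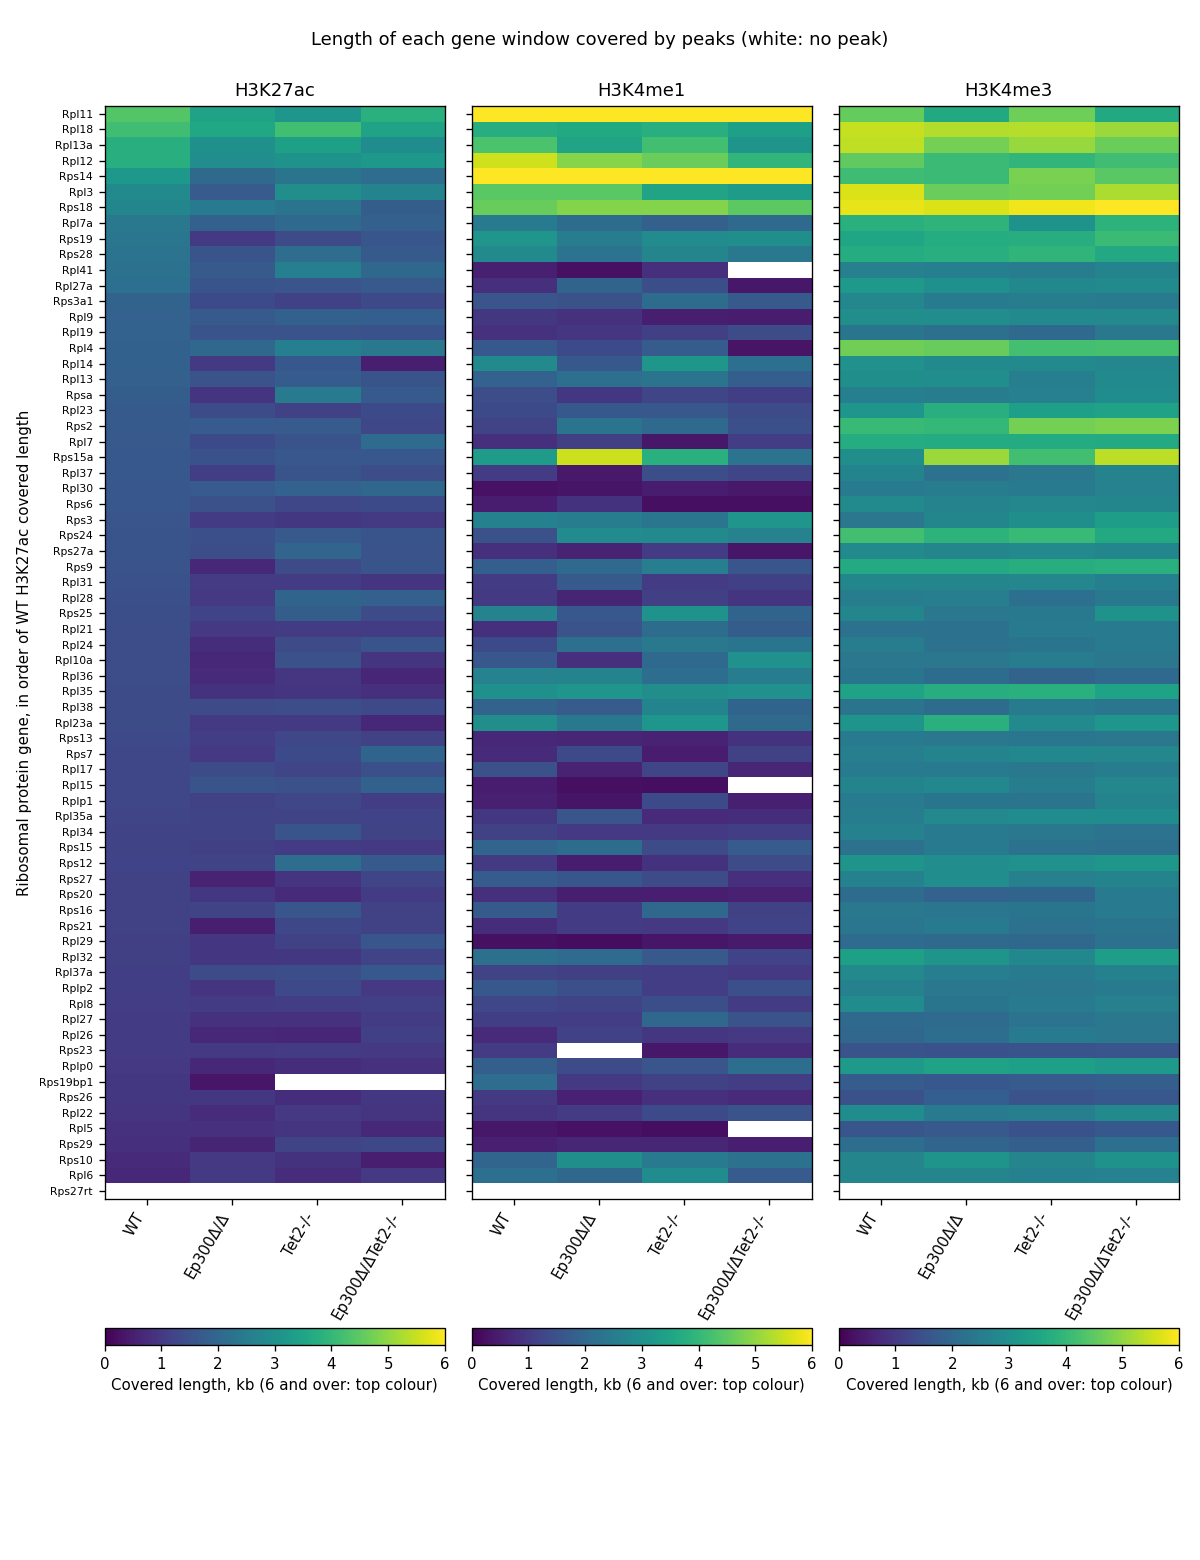
Length in kb of each gene window (gene body extended by 2 kb) covered by H3K27ac, H3K4me1 and H3K4me3 peaks, one row for each of 70 of the 75 genes in order of WT H3K27ac and one column per genotype, 1 library each. White cells hold no peak: Rps27rt in all 12 columns, Rps19bp1 for H3K27ac in the 2 Tet2-null columns, Rps23 for H3K4me1 in Ep300Δ/Δ, and Rpl5, Rpl15 and Rpl41 for H3K4me1 in Ep300Δ/ΔTet2-/-.

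The 3 marks took separate places around the start of these genes. H3K4me3 formed a single broad domain over the start and the first part of the gene. In WT cells it covered the start of 69 of 75 genes (92.0%, against 50.1% of all coding genes), and its strongest peak had a median width of 2530.5 bp, against 1570 bp over all coding genes. H3K27ac lay inside this domain in 2 blocks with a dip between them. In WT cells 62.7% of the genes had H3K27ac 250 bp upstream of the start, 36.0% at the start and 90.7% at 500 bp downstream. Over all coding genes 24.3% had H3K27ac 250 bp upstream, 21.5% at the start and 30.2% at 500 bp downstream, with a maximum of 33.7% at 200 bp, so a dip was also present there. H3K4me1 was nearly absent at the start, where 4% of the genes had a peak in WT cells, against 12.3% of all coding genes, and was most frequent 1550 bp downstream, over 60% of the genes. Because these genes have a median length of 3368 bp, against 17629 bp over all coding genes, that position lies inside or near the end of many of them. The downstream maximum of H3K27ac lay between 400 and 550 bp from the start in each list, and that of H3K4me1 between 1500 and 1700 bp. Other maxima lay further apart. In WT, Ep300Δ/Δ, Tet2-/- and Ep300Δ/ΔTet2-/- cells the upstream maximum of H3K4me1 was 500, 450, 1000 and 350 bp before the start, and the downstream maximum of H3K4me3 100, 900, 100 and 800 bp after it. Measured from the RefSeq start, an alternative chosen after seeing the data, the H3K27ac maximum lay between 250 and 350 bp.

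**Figure D2:**
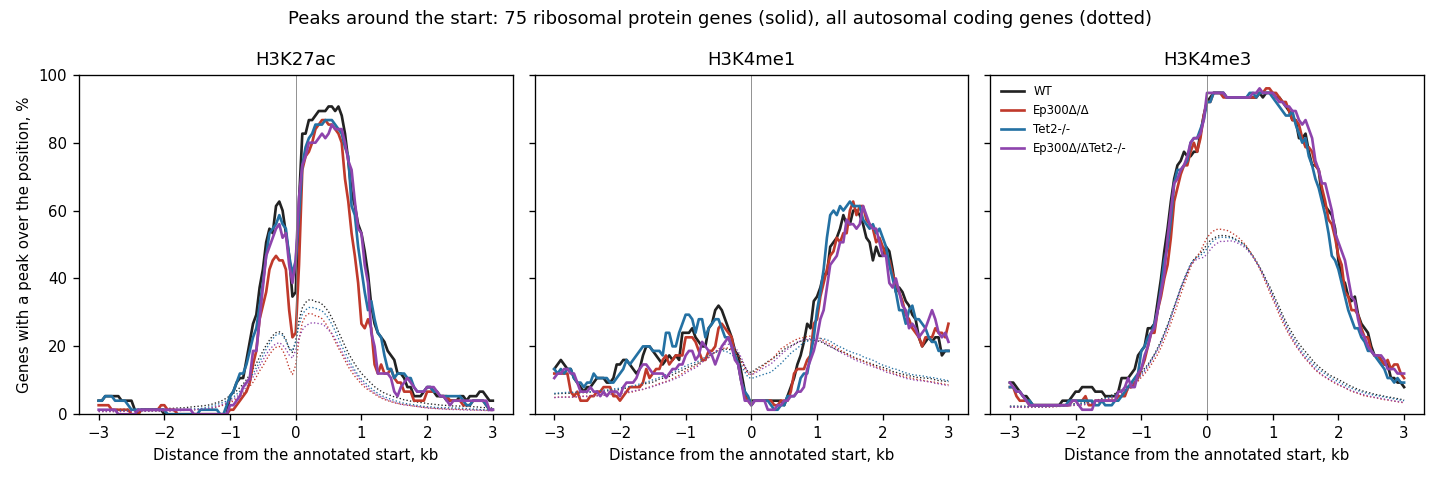
Share of genes (%, y axis) with a peak over each position from 3 kb upstream to 3 kb downstream of the annotated start (x axis, kb), for the 75 ribosomal protein genes (solid lines) and all autosomal coding genes (dotted lines) in the 4 genotypes. H3K27ac flanks the start, with 90.7% of WT genes covered at 500 bp downstream and 36.0% at the start, H3K4me1 is most frequent near 1.5 kb downstream, and at 250 bp upstream the Ep300Δ/Δ line of H3K27ac (45.3%) is the lowest of the 4.

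Within a list, genes were ranked by the fold enrichment over total H3 of their strongest peak, and the rank was given as a percentile among the coding genes with a peak in that list. Fold enrichments themselves are not compared between lists. The median percentile of the ribosomal protein genes for H3K27ac was 67.0, 73.6, 65.6 and 65.5 in WT, Ep300Δ/Δ, Tet2-/- and Ep300Δ/ΔTet2-/- cells. For H3K4me1 it was 40.5, 38.3, 38.9 and 33.7, below the middle of the list in each case with these windows. The strongest peak was sought over the whole window, and these genes are short (median 3368 bp, against 17629 bp over all coding genes). With windows of 1 kb on either side of the start, the H3K4me1 median in Tet2-/- cells lay above the middle. The part of gene length was not tested. For H3K4me3 it was 67.8 and 66.6 in the WT and Ep300Δ/Δ lists and 56.4 and 56.0 in the 2 Tet2-null lists. The genes were spread over most of the range: for H3K27ac in WT cells they ran from percentile 12.3 to 98.7, with 26 at or above 75 and 3 below 25. They were therefore not uniformly among the most enriched genes.

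**Figure D3:**
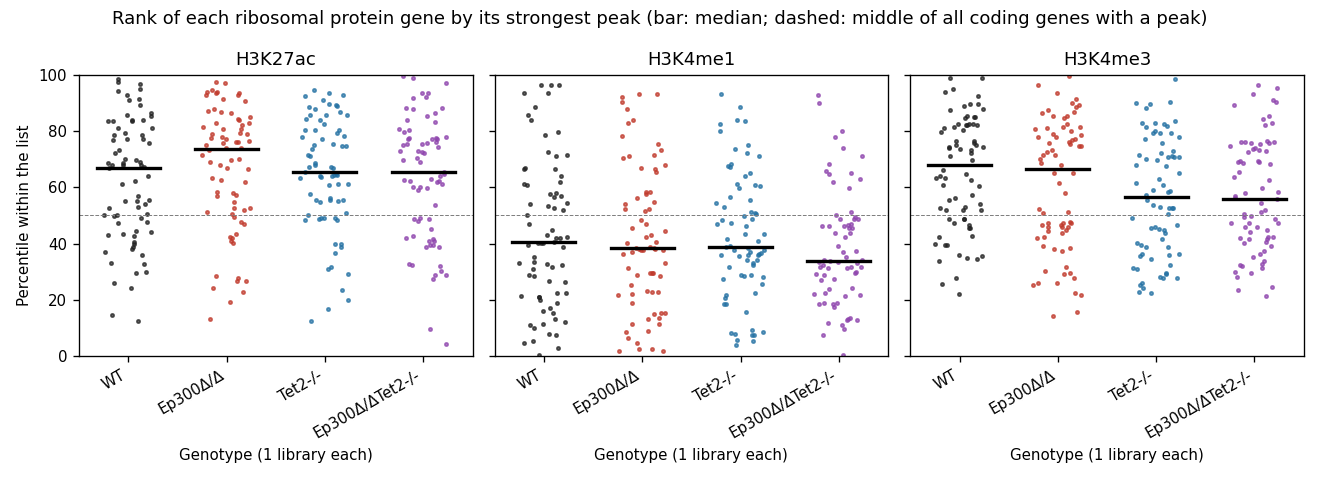
Percentile of each ribosomal protein gene within its list (y axis, 0 to 100) by the fold enrichment of its strongest peak, for 3 marks and 4 genotypes (x axis), 1 point per gene, with a bar at the median. Median H3K27ac percentiles lie between 65.5 and 73.6 and median H3K4me1 percentiles between 33.7 and 40.5, and those of H3K4me3 are 67.8, 66.6, 56.4 and 56.0.

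The 5 genes with the strongest H3K27ac peak in WT cells were Rpl21, Rpl7, Rps19, Rplp2 and Rps27, at percentiles 98.67, 97.30, 96.58, 95.04 and 94.11. Rpl21 and Rpl7 encode 60S proteins, and Rps19, the gene most often mutated in Diamond-Blackfan anemia, encodes a 40S protein needed for maturation of 18S rRNA. Their order was not kept in the other lists. Rpl21 stood at percentiles 93.99, 87.93 and 98.80 in Ep300Δ/Δ, Tet2-/- and Ep300Δ/ΔTet2-/- cells. Rpl7 stood at 56.87, 67.98 and 60.21, and the start of Rdh10 also lies in its window. Rps19 stood at 92.67, 64.89 and 83.29. The 5 genes with the weakest WT peak were Rpl13, Rps19bp1, Rps21, Rpl10a and Rpl14, at percentiles 12.29, 14.58, 24.30, 26.15 and 29.57. Rpl13 was at 57.41, 48.92 and 27.28 in the other 3 lists, while Rpl10a, a protein of the L1 stalk of the large subunit, stayed between 12.41 and 32.77. With 1 library each, such shifts of single genes have no measure of error.

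To show what lies at these starts, 8 promoters are printed from the RefSeq promoter table (GRCm38.p6, the assembly of mm10): those of the 3 subunit genes with the strongest and the 3 with the weakest WT H3K27ac that the table holds, with Rplp0 and Rpsa. Each runs 5′ to 3′ on the strand of the gene from 70 bases before to 30 bases after the listed start, which is base 71. Capitals mark the motifs searched for, described below.
Rps19: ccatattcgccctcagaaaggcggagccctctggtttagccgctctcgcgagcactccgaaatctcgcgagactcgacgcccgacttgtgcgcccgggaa
Rplp2: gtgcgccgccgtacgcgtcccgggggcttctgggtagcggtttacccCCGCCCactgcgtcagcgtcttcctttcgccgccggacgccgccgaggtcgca
Rps27: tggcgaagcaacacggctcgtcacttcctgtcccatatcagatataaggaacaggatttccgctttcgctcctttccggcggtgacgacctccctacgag
Rplp0: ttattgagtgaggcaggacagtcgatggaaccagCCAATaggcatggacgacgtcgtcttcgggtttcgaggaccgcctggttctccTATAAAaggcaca
Rpsa: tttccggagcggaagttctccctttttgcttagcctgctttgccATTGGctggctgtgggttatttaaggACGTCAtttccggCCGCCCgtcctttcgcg
Rpl13: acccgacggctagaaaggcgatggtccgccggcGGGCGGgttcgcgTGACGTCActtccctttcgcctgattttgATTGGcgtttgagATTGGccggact
Rps21: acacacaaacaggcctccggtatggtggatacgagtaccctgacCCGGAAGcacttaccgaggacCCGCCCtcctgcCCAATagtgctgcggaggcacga
Rpl10a: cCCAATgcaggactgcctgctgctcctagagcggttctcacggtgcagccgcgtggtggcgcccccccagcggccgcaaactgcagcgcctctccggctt
They lie at chr7:24884522-24884621 (Rps19), chr7:141447581-141447680 (Rplp2), chr3:90213619-90213718 (Rps27, minus strand), chr5:115559397-115559496 (Rplp0), chr9:120127696-120127795 (Rpsa), chr8:123102280-123102379 (Rpl13), chr2:180257309-180257408 (Rps21) and chr17:28328401-28328500 (Rpl10a), on the plus strand unless stated.

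The table held 55 of the 75 genes. Genes such as Rpl7, Rps20, Rpl21, Rpl32, Rplp1, Rpl29, Rps27a, Rpl23a, Rps29, Rpl30, Rpl8, Rpl3, Rpl36, Rps14 and Rpl17 were not among them. Translation of ribosomal protein mRNAs is controlled through a 5′ terminal oligopyrimidine tract, a C followed by a run of pyrimidines at the very start of the message. A C and 4 further pyrimidines stood exactly at the listed start of 13 of 55 genes (23.6%), among them Rplp2 (ctttcgcc) and Rps27 (cctttccg), against 2.19% of 15687 coding genes in the table. Within 10 bases of the listed start such a run was found in 31 of 55 genes (56.4%), against 31.5%. Motifs were searched on both strands of the whole 300 bases, 250 before to 50 after the start. The core of the ETS family, CCGGAAG, was present in 22 of 55 promoters (40%, against 12.5% of all), including those of Rpl11, Rps26, Rps2 and Rps21. The YY1 motif AAGATGGC was present in 5 (9.09%, against 3.24%), and its shorter form AAGATGG, contained in it, in 9 (16.4%, against 6.41%). The CRE core TGACGT was found in 12 (21.8%, against 9%), the E-box CACGTG in 5 (9.09%, against 8.13%) and the GC box GGGCGG in 32 (58.2%, against 48.6%). TATAAA was found in 4 (7.27%, against 12.9%), with the matches on the gene strand at Rplp0, Rps2 and Rps28 downstream of the listed start and those on the other strand, at Rps2 and Rpl22, at -137 and -177, and CCAAT in 16 (29.1%, against 38.5%). The median ratio of observed to expected CpG was 0.909, against 0.612. A match is a match of letters and not a bound site, and the absence of one says only that these letters are not in the window.

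The ribosomal stalk recruits translation factors to the large subunit. Rplp0 anchors it and Rplp1 and Rplp2 form its arms. H3K27ac covered 995, 698, 779 and 845 bp at Rplp0, 1278, 1170, 1287 and 1100 bp at Rplp1 and 1111, 903, 1324 and 1001 bp at Rplp2, in the order WT, Ep300Δ/Δ, Tet2-/- and Ep300Δ/ΔTet2-/-. At each of the 3 genes the Ep300Δ/Δ value was below the WT value by less than 1.5-fold, and the start of Gcn1l1 also lies in the window of Rplp0. Rpsa, a 40S protein also known as the laminin receptor, varied more: 1761, 908, 2490 and 1697 bp. The WT Rpsa list held a separate H3K27ac region of 461 bp centered 1135 bp downstream of the start that had no peak in Ep300Δ/Δ cells. H3K4me3 at Rpsa covered 2580, 2512, 2615 and 2922 bp, a narrow range by comparison.

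A list of 16 genes linked to bone marrow failure was examined, among them Rps7, Rps10, Rps19, Rps24, Rps26, Rps29, Rpl5, Rpl11, Rpl15, Rpl18, Rpl26, Rpl27, Rpl31 and Rpl35a of Diamond-Blackfan anemia, and Rps14. All 16 had H3K27ac and H3K4me3 in each of the 4 genotypes, and 16, 16, 16 and 14 had H3K4me1. Rpl5 and Rpl11, which with 5S rRNA bind and restrain Mdm2, differed in length of mark. H3K27ac covered 863, 855, 926 and 699 bp at Rpl5, annotated across 8504 bp. At Rpl11, annotated across 25164 bp and with its strongest WT peak at percentile 43.17, it covered 4385, 3468, 3148 and 3808 bp. The WT value at Rpl11 was the longest of the 75 genes. Rps14 had 3191, 2075, 2300 and 2151 bp over a gene annotated across 31449 bp, and the start of Ndst1 also lies in its window. Of the 16, 2 (Rps19 and Rps14) had H3K27ac shorter by 1.5-fold or more from WT to Ep300Δ/Δ (against 37.0% of coding genes), and the median log2 ratio over the 16 was -0.26, against -0.41 over all coding genes. From Tet2-/- to Ep300Δ/ΔTet2-/-, Rps10 was shorter and Rpl26 longer by that fold (against 22.5% and 5.76%), and the median was 0.02, against -0.15.

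Few H3K27ac regions at ribosomal protein genes were without a counterpart after Ep300 deletion. For each pair of genotypes the peaks of both lists were merged, and a region was called lost where the second list had no peak overlapping it by 1 bp or more. From WT to Ep300Δ/Δ, 15 of 142 regions at these genes were lost (10.6%, exact Clopper-Pearson 95% interval 6.03% to 16.8%), against 35.9% of 23176 regions at all coding genes, and 5 were gained (3.79% of the regions of the second list at these genes, against 11.6%). From Tet2-/- to Ep300Δ/ΔTet2-/-, 16 of 123 were lost (13%, 7.62% to 20.3%), against 34.9% of 19248, and 5 were gained (4.46%, against 13.2%). These intervals cover counting error over regions and not the spread between animals or libraries. Comparisons that differ in Tet2 share libraries with these. From WT to Tet2-/-, 15 of 133 regions were lost (11.3%, 6.45% to 17.9%), against 32.1%, and from Ep300Δ/Δ to Ep300Δ/ΔTet2-/-, 13 of 125 (10.4%, 5.65% to 17.1%), against 29.0%. In all 4 comparisons the upper bound at ribosomal protein genes lay below the value for all coding genes. The share lost was thus similar between lists that differ in Tet2 and lists that differ in Ep300. The 4 lists of the mark were also reduced to 1 size by keeping the peaks with the lowest q values. Of the regions kept, 3.31% at ribosomal protein genes and 21.2% at all coding genes were lost from WT to Ep300Δ/Δ. On the Tet2-null background 8.55% and 21.8% were lost. With only peaks whose summit lay in the window, and a region shared only where the second list covered 50% of it, 17.4% and 44.1% were lost from WT to Ep300Δ/Δ.

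**Figure D4:**
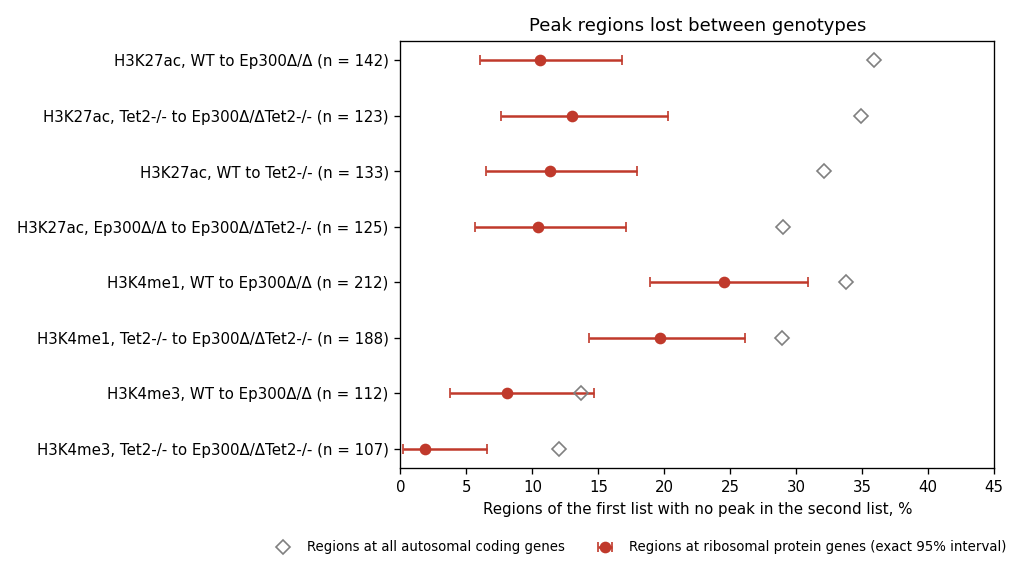
Share (%, x axis) of regions of the first list with no peak in the second list, at ribosomal protein genes (filled circles with exact 95% intervals for counting error, n regions given) and at all autosomal coding genes (diamonds), for 8 comparisons. For H3K27ac the ribosomal protein genes lie at 10.4% to 13% and all coding genes at 29.0% to 35.9%.

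Position and strength of the regions moved with this difference, and their part in it was not tested. With windows of 1 kb on either side of the start, 7.27% of H3K27ac regions at ribosomal protein genes and 14.8% of those at all coding genes were lost from WT to Ep300Δ/Δ, and 6.19% and 18.7% from Tet2-/- to Ep300Δ/ΔTet2-/-. All regions of the first list were then split by fold enrichment into 4 bins of equal size, bin 1 the weakest and bin 4 the strongest. From WT to Ep300Δ/Δ, 78 of the 142 regions at ribosomal protein genes fell in bin 4 and 0 of these were lost (which allows up to 4.62%), against 1.19% of regions at coding genes. In bin 1, 10 of 14 were lost (71.4%, 41.9% to 91.6%), against 74.0%. Bins 2 and 3 lost 3 of 16 (18.8%, 4.05% to 45.6%) and 2 of 34 (5.88%, 0.720% to 19.7%), against 54.0% and 21.2%. On the Tet2-null background bins 1 to 4 lost 7 of 9, 7 of 15, 1 of 30 and 1 of 69, which is 77.8%, 46.7%, 3.33% and 1.45%, against 71.7%, 52.6%, 19.7% and 1.79%. Within bins 1 and 4 the value for all coding genes lay inside the counting interval on both backgrounds. It lay outside in bins 2 and 3 from WT to Ep300Δ/Δ and in bin 3 on the Tet2-null background.

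**Figure D5:**
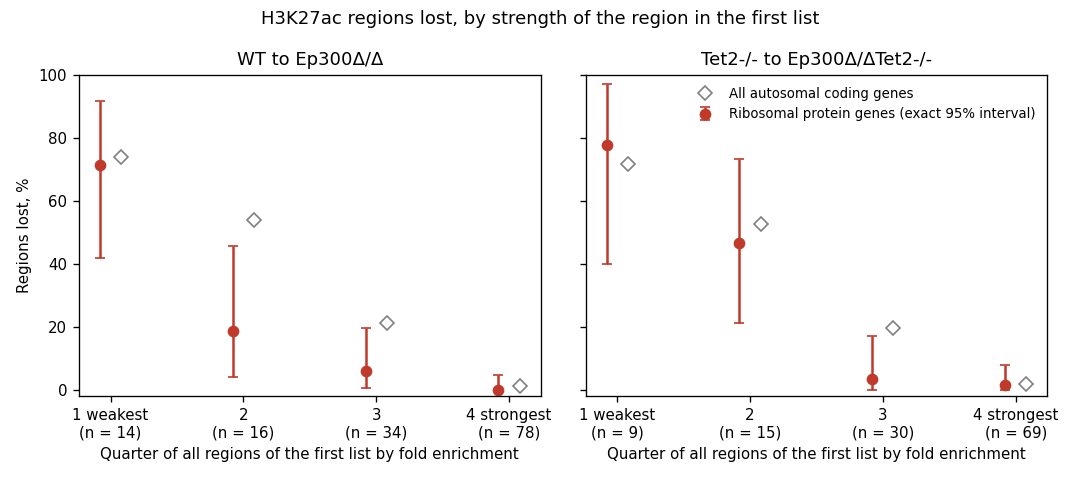
H3K27ac regions lost (%, y axis) in 4 equal bins of all regions of the first list by fold enrichment (x axis, weakest to strongest), at ribosomal protein genes (circles with exact 95% intervals, n regions given) and all coding genes (diamonds). The weakest bin lost 71.4% and 77.8% at ribosomal protein genes, and the strongest 0% and 1.45%.

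The lost regions were short and weak. From WT to Ep300Δ/Δ they had a median width of 422 bp and a median fold enrichment of 4.41, and from Tet2-/- to Ep300Δ/ΔTet2-/- 426.5 bp and 4.66. Of the 15 lost on the WT background, 10 lay downstream of the start and 7 within 1 kb of it. Rps14 held 3 of them, 2 of which lay over 14 kb into the annotated gene, at 14652 and 15392 bp from its start. The strongest was at Rpl3, a 60S protein close to the peptidyl transferase center: a region of 499 bp (chr15:80090735-80091233, mm10), 8.548-fold enriched in WT cells and centered 884 bp downstream of the start. At Rps29 a region of 201 bp, 8.036-fold enriched and centered at -398 bp from the start, was lost. On the Tet2-null background the strongest lost region was at Rpl18 (679 bp, 11.447-fold, at -559 bp from the start). The starts of Sphk2 and Fam83e also lie in the window of Rpl18. Rpl14 lost 2 regions, at -830 and 670 bp from the start, and these 2 genotypes differed more at Rpl14 than at any other ribosomal protein gene in covered length.

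Where H3K27ac remained, it was shorter in Ep300Δ/Δ cells at most of these genes, as at most coding genes. The covered length was compared at genes with a peak in both lists and called changed at a ratio of 1.5 or more. From WT to Ep300Δ/Δ, 62 of 74 genes had a shorter covered length (83.8%, against 87.1% of coding genes) and 12 a longer one (16.2%, against 12.9%), with a median log2 ratio of -0.30, against -0.41 over all coding genes. At 15 of 74 it was shorter by 1.5-fold or more (20.3%, against 37.0% of coding genes) and at 0 longer by that fold (against 1.83%). Within 1 kb of the start 10.1% were shorter by that fold, against 22.1%. The 15 were 8 genes of the 40S subunit (among them Rps19, Rps21, Rps9, Rps27, Rpsa, Rps14 and Rps3), 6 of the 60S subunit (Rpl10a, Rpl36, Rpl14, Rpl24, Rpl3 and Rpl35) and Rps19bp1. Fewer genes had H3K27ac in each of the stretches around the start that are listed next. H3K27ac within 1 kb upstream of the start was found at 55 genes in WT and 48 in Ep300Δ/Δ cells, at the start itself at 27 and 18, within 1 kb downstream at 70 and 68, and from 1 to 2.5 kb downstream at 45 and 29. Over all coding genes the same shares were 33.4% and 28.7%, 21.5% and 14.5%, 40.5% and 38.4%, and 15.2% and 11.9%. Peaks in Ep300Δ/Δ cells were shorter across the genome (median 402 bp, against 497 bp in WT cells), and how much of this reflects library quality was not tested.

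The largest differences on the WT background were at Rps19bp1, Rps19, Rps21, Rps9 and Rpl10a. Rps19 had 2347 bp of H3K27ac in WT and 1017, 1386 and 1607 bp in Ep300Δ/Δ, Tet2-/- and Ep300Δ/ΔTet2-/- cells, a log2 ratio of -1.21 from WT to Ep300Δ/Δ. Its WT value was thus the highest of 4 and not matched in any other list. Rps21 had 1150, 511, 1291 and 1164 bp, and Rps9, a 40S protein, 1546, 703, 1365 and 1555 bp. At both genes the Ep300Δ/Δ list stood alone and the other 3 lists lay close together. Rpl10a had 1413, 687, 1479 and 929 bp, lower in both lists without Ep300. At the other end, Rpl6 (688, 1016, 761 and 1006 bp), Rps10 (728, 993, 888 and 514 bp), Rpl37a (1113, 1397, 1449 and 1652 bp), Rpl15 (1281, 1550, 1484 and 1860 bp) and Rpl17 (1285, 1387, 1247 and 1475 bp) had the largest gains from WT to Ep300Δ/Δ. None of these 5 passed 1.5-fold. Rpl6 had the largest of them, with a log2 ratio of 0.56.

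On the Tet2-null background H3K27ac lengths differed less. From Tet2-/- to Ep300Δ/ΔTet2-/-, 42 of 73 genes had a shorter covered length (57.5%, against 64.1%) and 31 a longer one (42.5%, against 35.7%), with a median log2 ratio of -0.07, against -0.15 over all coding genes. At 5 of 73 it was shorter by 1.5-fold or more (6.85%, against 22.5%) and at 1 longer (1.37%, against 5.76%). Among the 5 were Rpl14, Rps10, Rpl10a and Rpl23a, a 60S protein at the exit of the peptide tunnel. Rpl14 had 1864, 1019, 1657 and 511 bp in WT, Ep300Δ/Δ, Tet2-/- and Ep300Δ/ΔTet2-/- cells, log2 ratios of -0.87 and -1.70 on the 2 backgrounds. Rps10, a Diamond-Blackfan anemia gene, was longer on the WT background and shorter on the Tet2-null background (log2 ratio -0.79). Rpl23a had 1370, 1025, 1021 and 665 bp and was lowest where Ep300 and Tet2 were both missing. Rpl10a and Rpl14 were the 2 genes shorter by 1.5-fold or more on both backgrounds. The share of coding genes shorter on both is not given here, so this overlap cannot be set against it. Rpl26, whose protein binds Trp53 mRNA, was the gene longer by 1.5-fold, with 1039, 693, 651 and 1136 bp. Rps20 (742 and 1065 bp in Tet2-/- and Ep300Δ/ΔTet2-/- cells), Rps7 (1355 and 1931 bp), Rpl7 (1528 and 2109 bp) and Rpl29 (1169 and 1608 bp) followed.

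H3K27ac upstream of the start was found at 54 genes in Tet2-/- and 53 in Ep300Δ/ΔTet2-/- cells, at the start at 34 in both, within 1 kb downstream at 68 and 67, and from 1 to 2.5 kb downstream at 38 and 43. Over all coding genes the shares were 33.1% and 29.8%, 21.4% and 18.9%, 39.1% and 35.7%, and 13.4% and 12.1%. Whether the 2 backgrounds differ was not tested, since each rests on 2 libraries. From WT to Tet2-/- 8 of 73 genes were shorter by 1.5-fold or more (against 20%) and 2, Rps12 and Rps29, longer (against 6.82%). From Ep300Δ/Δ to Ep300Δ/ΔTet2-/- 3 of 73 were shorter (against 10.7%) and 13 longer (17.8%, against 15.9%).

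By subunit, the median log2 ratio of H3K27ac covered length from WT to Ep300Δ/Δ was -0.30 over 43 genes of the 60S and -0.26 over 30 genes of the 40S subunit, and -0.05 and -0.09 on the Tet2-null background. Of these, 6 of 43 and 8 of 30 were shorter by 1.5-fold or more from WT to Ep300Δ/Δ, against 37.0% of coding genes. Genes that host snoRNAs, 28 in all with 56 snoRNA genes, had median log2 ratios of -0.30 and -0.11. The median H3K4me3 percentile was 66.1, 68.5, 58.5 and 63.8 for the 60S and 72.6, 66.6, 54.6 and 48.4 for the 40S genes in WT, Ep300Δ/Δ, Tet2-/- and Ep300Δ/ΔTet2-/- cells, so the order of the subunits was not the same in each list.

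H3K4me3 at these genes differed little between genotypes. From WT to Ep300Δ/Δ, 9 of 112 regions were lost (8.04%, 3.74% to 14.7%), against 13.7%, and from Tet2-/- to Ep300Δ/ΔTet2-/- 2 of 107 (1.87%, 0.227% to 6.59%), against 12%. Covered length was shorter by 1.5-fold or more at 0 of 74 genes in both comparisons, against 4.59% and 4.33% of coding genes. It was longer at 1 gene in the first, against 3.08%, and at 0 in the second, against 1.78%. The gene was Rps15a, with 2970, 5089, 4174 and 5412 bp. Median covered length was 2761, 2721.5, 2609.5 and 2764.5 bp in WT, Ep300Δ/Δ, Tet2-/- and Ep300Δ/ΔTet2-/- cells. The rank of its strongest peak differed more. A drop of 10 percentile points or more, a measure chosen after the medians had been seen, was found at 34 of 74 genes from WT to Tet2-/- (45.9%, against 28.3% of coding genes) and at 29 from Ep300Δ/Δ to Ep300Δ/ΔTet2-/- (39.2%, against 29.8%). It was also found at 32 from WT to Ep300Δ/Δ (43.2%, against 26.9%), and at 20 from Tet2-/- to Ep300Δ/ΔTet2-/- (27%, against 28.2%). A rise of that size was found at 14, 21, 21 and 20 genes in these comparisons, in the same order, against 29.4%, 29.5%, 29.4% and 29.3% of coding genes, so drops and rises were equal in number in the last. Rpl7 was among the genes that moved, at percentiles 98.71, 45.78, 88.29 and 58.02, and Rps26, a 40S protein at the mRNA exit, at 98.89, 74.67, 70.65 and 95.41.

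H3K4me1 was the most variable of the marks here. From WT to Ep300Δ/Δ, 52 of 212 regions were lost (24.5%, 18.9% to 30.9%), against 33.8%, and 35 were gained (17.9%, against 23.8%). From Tet2-/- to Ep300Δ/ΔTet2-/-, 37 of 188 were lost (19.7%, 14.3% to 26.1%), against 28.9%, and 33 were gained (17.9%, against 23.3%). Between lists that differ in Tet2 the shares lost were close to those of all coding genes. They were 59 of 210 from WT to Tet2-/- (28.1%, 22.1% to 34.7%), against 28.1%. From Ep300Δ/Δ to Ep300Δ/ΔTet2-/- they were 53 of 200 (26.5%, 20.5% to 33.2%), against 26.1%. Covered length was shorter by 1.5-fold or more at 14 of 73 genes from WT to Ep300Δ/Δ (19.2%, against 18.8%) and at 12 of 71 from Tet2-/- to Ep300Δ/ΔTet2-/- (16.9%, against 19.0%). It was longer at 12 (16.4%, against 12.3%) and at 5 (7.04%, against 10.3%). These shares were close to those of all coding genes. Rplp1 (534, 332, 1355 and 531 bp), Rps16 (1697, 1076, 2016 and 1158 bp), Rps25 (2694, 1621, 3072 and 1928 bp) and Rpl17 (1493, 572, 1246 and 649 bp) were shorter by that fold on both backgrounds. For H3K4me1 too, the share of coding genes shorter on both is not given here.

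Other genes of protein synthesis, and genes of the proteasome, which degrades proteins, carried H3K27ac at similar frequency. A peak was found at 77, 76, 78 and 75 of 78 genes for mitochondrial ribosomal proteins (Mrpl and Mrps), at 38 of 39 genes for proteasome subunits (Psma, Psmb, Psmc and Psmd) in each list, at 26, 26, 26 and 25 of 26 translation factor genes, and at 17, 17, 16 and 17 of 17 genes of ribosome biogenesis. Median H3K27ac covered lengths were 1422, 1112, 1360 and 1321 bp at the cytosolic ribosomal protein genes. They were shorter at the mitochondrial ribosomal protein genes (1008, 728, 860.5 and 832.5 bp) and the proteasome genes (1147, 944, 1114 and 895 bp). At the genes of ribosome biogenesis they were 1465, 1180, 1454 and 1480 bp, longer in each list, and at translation factor genes 1596, 1373, 1493 and 1194 bp, longer in 3 of the 4 lists. The share of H3K27ac regions lost from WT to Ep300Δ/Δ was 14.8% (9.18% to 22.2%) at the mitochondrial ribosomal protein genes, 23.6% (14.4% to 35.1%) at the proteasome genes, 9.52% (2.66% to 22.6%) at translation factors and 17.9% (7.54% to 33.5%) at genes of ribosome biogenesis. From Tet2-/- to Ep300Δ/ΔTet2-/- it was 14.5%, 16.1%, 21.3% and 17.6%. These intervals overlapped that of the cytosolic ribosomal protein genes. Ribosomal protein genes have many processed pseudogenes. Of 155 autosomal genes named Rpl or Rps with the ending -ps that lie outside the windows of coding genes, 4, 3, 3 and 3 had an H3K27ac peak and 4, 4, 3 and 3 an H3K4me3 peak. Reads of low mapping quality, which include those that fit a gene and its pseudogenes equally well, were removed by the authors, and the part of this filter in the values above was not tested.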

How the data were processed

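The 12 ChIP-Seq peak lists cover 3 histone marks and 4 genotypes of Lin- bone marrow, with 1 library each. The other 8 samples of the series were not analysed here. Per the labels, Lin- cells of over 80% purity gave 5 μg of chromatin per precipitation, with 10 ng of Drosophila chromatin added. Per the submitters' processing notes and the study's methods, the authors trimmed reads (cutadapt 1.15), aligned them to mm10 (BWA 0.7.13), removed duplicates (Picard), reads with a mapping quality of 30 or less and blacklisted regions, and called narrow peaks against total H3 with MACS2 2.1.1.20160309, keeping peaks shared by pseudo-replicates. Titles of 8 lists read H3Kme1 or H3Kme3 and were taken as H3K4me1 and H3K4me3, as in the methods. The labels describe single-end and the methods paired-end reads. No spike-in scaling enters a peak list, so peak heights were not compared between lists.

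Each deposited list gives positions and a summit offset (the offset column is a plain distance in bp), the fold enrichment as a ratio over H3, the −log10 p-value and q-value, and a display score that was not used. The stated q threshold was 0.05, and the deposited lists hold some peaks above it.

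Genes came from GENCODE vM21 on the same build. A gene window was the gene body extended by 2000 bp. Overlap needed 1 bp. The genes, lists, measures and motifs were chosen with earlier results of these data known. Named genes were the stalk genes and Rpsa, the bone marrow failure genes, the 5 strongest and 5 weakest by WT H3K27ac fold, genes without H3K27ac or H3K4me3 in a list, and the 5 largest differences in H3K27ac covered length in each direction on each background. Some genes of these groups are not reported here. Other genes named were picked after their values were seen. Promoter letters came from the RefSeq table, taking the most upstream listed start in place of the GENCODE start, and coding genes in that table as background. The drop or rise of 10 percentile points, the background shares of genes with a shorter or longer H3K27ac length by any amount, the RefSeq start for positions and median log2 ratios under alternatives were added after seeing the data. Intervals are exact Clopper-Pearson 95% intervals and cover counting error only. Counts were made in Python 3.11.15 with pandas 2.3.3 and scipy 1.17.1, and tested on simulated lists and with bedtools 2.31.1. Alternatives covered the q threshold, list size, overlap rule, gene window, members and annotated start.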

Additional observations from a re-analysis of the deposited data

Results flagged for a closer look

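On the 2 Tet2 backgrounds some values lay on opposite sides of 0 in the comparison of Ep300-deleted with undeleted cells. Each rests on 1 library per genotype, and the difference between backgrounds was not tested. The median change in H3K27ac percentile of the ribosomal protein genes was 2.31 points from WT to Ep300Δ/Δ and -2.93 points from Tet2-/- to Ep300Δ/ΔTet2-/-. The log2 ratio of H3K4me1 covered length at Rpl27a, a 60S protein gene, was 1.24 and -1.87. At Rps15a, a 40S protein gene, it was 0.74 and -0.74, and at Rps12, also of the 40S subunit, -1.17 and 0.65. The median log2 ratio of H3K4me3 covered length was -0.02 and 0.05, which are both close to 0. The second of these turned below 0 with windows of 1 kb on either side of the start.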

How the results depend on the processing

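No paired analysis was possible because each genotype and mark had 1 library, all given the same replicate number. Of 466 values recomputed under alternatives, 414 stayed inside the 95% interval of the reported value. A further 50 lay outside it, and 2 lay outside it with the opposite sign. For medians this was an exact interval from order statistics. The causes were not tested. With Rps19bp1 and Rps27rt left out, presence was 100% for H3K27ac and H3K4me3 in each list and for H3K4me1 in WT and Tet2-/- cells. Within 1 kb of the start it was 94.7%, 92.0%, 92.0% and 92.0% for H3K27ac and 68.0%, 64.0%, 65.3% and 54.7% for H3K4me1 in the order WT, Ep300Δ/Δ, Tet2-/- and Ep300Δ/ΔTet2-/-. For H3K4me1 a −log10 q of at least 5 gave 88.0% in WT and 76.0% in Ep300Δ/Δ cells, and the gene body alone 88.0%, 90.7% and 88.0% in WT, Ep300Δ/Δ and Tet2-/- cells. The median H3K4me1 percentile became 32.6 in WT cells (body), 28.6 and 22.5 in Ep300Δ/Δ and Ep300Δ/ΔTet2-/- cells (strict q), and 56.3 and 46.2 in Tet2-/- and Ep300Δ/ΔTet2-/- cells (1 kb). H3K27ac regions lost from WT to Ep300Δ/Δ were 3.31% with lists of 1 size and 17.4% with the stricter summit and overlap rule, and from Tet2-/- to Ep300Δ/ΔTet2-/- 6.19% within 1 kb. From WT to Tet2-/- they were 3.48% (1 size) and 5.94% (1 kb), and from Ep300Δ/Δ to Ep300Δ/ΔTet2-/- 4.50% (strict q) and 5.05% (1 kb). H3K4me1 regions lost were 44.9% (strict q), 12.9% (1 kb) and 18.7% (body) from WT to Ep300Δ/Δ, and 31.0% (strict q) and 10.5% (body) on the Tet2-null background. H3K4me3 regions lost on that background were 0% within 1 kb and 0% at genes with no other coding start. Genes with H3K27ac shorter by 1.5-fold from WT to Ep300Δ/Δ were 10.1% within 1 kb, and longer from Ep300Δ/Δ to Ep300Δ/ΔTet2-/- 7.35%. Genes with H3K4me1 shorter by that fold were 39.6% and 28.8% on the 2 backgrounds under the strict q, longer from WT to Ep300Δ/Δ 7.14% within 1 kb, and H3K4me3 was longer at 0% there. Shares of all coding genes under these settings are printed only where the text above gives them. Elsewhere these values show how far a result moved, and not whether these genes differ from other coding genes. Median log2 ratios turned from -0.10 to 0.02 for H3K4me1 from WT to Ep300Δ/Δ with lists of 1 size, and from 0.05 to -0.0048 for H3K4me3 on the Tet2-null background within 1 kb.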

Other observations

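Cytosolic ribosomal proteins whose genes the naming rule leaves out also carried both promoter marks. Fau and Rack1, on autosomes, and Rpl10, Rpl36a, Rpl39 and Rps4x, on the X chromosome, had H3K27ac and H3K4me3 in each of the 4 genotypes. H3K4me1 was not found at Rpl39 in Ep300Δ/Δ and Ep300Δ/ΔTet2-/- cells or at Rps4x in WT and Ep300Δ/ΔTet2-/- cells. H3K27ac covered 2520, 1779, 1602 and 1940 bp at Rack1, a scaffold protein of the 40S subunit, in the order WT, Ep300Δ/Δ, Tet2-/- and Ep300Δ/ΔTet2-/-. At Rps4x it covered 1400, 704, 445 and 1055 bp.

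Of 7 paralog forms, 5 had H3K27ac in each list. Rpl10l and Rpl39l, the copies known from testis, had no peak of any mark in any of the 12 lists, whereas Rpl22l1 had H3K27ac over 669, 612, 648 and 716 bp. At Rpl3l, a paralog known from muscle, the window held H3K27ac in each list but 0 peaks lay within 1 kb of its start.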
